A study of Ovis aries with 4 samples.

Results

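Immediate early genes are genes whose transcription rises within minutes of a stimulus, without new protein synthesis. Several encode transcription factors that pass the signal on, and others encode proteins that end the response. In neurons their RNA is widely read as a trace of recent activity, and in glia and microglia it follows growth factors, injury and cytokines. The genes described are 9 of the 26478 listed in the series, found in the gene lists by their symbols: FOS, JUN, JUNB, JUND, EGR1, NR4A1, DUSP1, BTG2 and ZFP36. Each symbol matched 1 Ensembl sheep identifier, and the identifiers were the same in the lists of all libraries.

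The study measured frozen striatum, a deep forebrain region, from 4 sheep aged 5 years, for which the labels name no treatment. Droplet RNA sequencing was run in 2 ways, on whole cells freed with the enzyme papain and on nuclei freed by homogenising the tissue with detergent. Each way had 2 libraries, and each library pooled 2 animals, sheep 1 and 2 in replicate 1 and sheep 3 and 4 in replicate 2 by the sample titles, although the protocol text gives animals 2 and 3 as the source of the second suspension. Pooling hides the spread between animals, so errors are between pools.

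The libraries differed far more in content than in number of barcodes. Whole cells held 2162 and 32500 barcodes with 125974 and 2512837 UMIs (single captured RNA molecules) outside mitochondrial genes, which took 88.7% and 86.9% of all their UMIs. Nuclei held 8815 and 8723 barcodes with 69924470 and 50705635 non-mitochondrial UMIs, and mitochondrial genes took 0.779% and 0.776%. Of the whole cells barcodes, 68 and 269 had at least 200 genes, too few to sort into cell types, so cell types were examined in nuclei. Whole cells values are therefore those of all barcodes, most of them with under 200 genes. Pairs of libraries shared between 2 and 87 barcodes, at most 0.997% of the nuclei of a library. A level in CPM is the UMIs of a gene per 1000000 UMIs, counted over non-mitochondrial UMIs for a whole library and over all UMIs for a class or cluster of nuclei. Levels were not compared between genes, because capture depends on each transcript.

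The first question was whether the 9 genes differed between whole cells and nuclei of the same tissue. Relative to the bulk of other genes, FOS, JUN, JUND and EGR1 were lower in nuclei and BTG2 was higher, while JUNB, NR4A1, DUSP1 and ZFP36 did not pass the test. FOS and the JUN genes encode the proteins that pair into the transcription factor AP-1. EGR1 encodes a zinc finger transcription factor, and BTG2 an antiproliferative protein that acts on RNA decay. In tissue libraries of this kind, fewer cells of a type and less RNA per cell cannot be told apart.

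The whole cells libraries held 3 and 43 FOS UMIs, the nuclei libraries 315 and 131. Its level was 23.8 and 17.1 CPM in whole cells against 4.50 and 2.58 in nuclei, with no overlap between the kinds. Over all UMIs, mitochondrial ones included, it was 2.69 and 2.23 against 4.47 and 2.56, and the kinds overlapped. In edgeR's quasi-likelihood test, with p-values adjusted by Benjamini-Hochberg over all genes tested and a threshold of 0.05, its log2 difference, nuclei over whole cells, was -2.44 (SE 0.54, adjusted p = 3.2e-04, n = 2 against 2).

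JUN, the classic AP-1 partner of FOS, had 7 and 86 UMIs in whole cells against 675 and 736 in nuclei. Its levels were 55.6 and 34.2 against 9.65 and 14.5 CPM over non-mitochondrial UMIs, without overlap. Over all UMIs the order was the opposite, at 6.28 and 4.47 against 9.58 and 14.4. Its log2 difference was -1.76 (SE 0.42, edgeR adjusted p = 7.7e-04). With the animal pool as a replicate block JUN no longer passed (-1.75, adjusted p = 0.069), and it also failed without nuclei replicate 1 (adjusted p = 0.081).

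JUND, the JUN family member usually present at rest, had 3 and 57 UMIs in whole cells against 176 and 44 in nuclei. Its levels of 23.8 and 22.7 CPM in whole cells lay above those of 2.52 and 0.868 in nuclei, a log2 difference of -3.81 (SE 0.57, edgeR adjusted p = 1.6e-06). EGR1 had 1 and 29 UMIs in whole cells against 70 and 78 in nuclei, or 7.94 and 11.5 against 1.00 and 1.54 CPM, again with no overlap. Its log2 difference was -3.25 (SE 0.65, edgeR adjusted p = 9.0e-05). Over all UMIs, JUND stayed higher in both whole cells libraries (2.69 and 2.96 against 2.50 and 0.861 CPM), while EGR1 overlapped (0.897 and 1.51 against 0.993 and 1.53).

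BTG2 went the other way. It had 0 and 9 UMIs in whole cells against 6673 and 5649 in nuclei, or 0 and 3.58 against 95.4 and 111.4 CPM. The log2 difference was 4.78 (SE 0.62, edgeR adjusted p = 1.2e-07). Both nuclei libraries also lay above both whole cells libraries when all UMIs were the base, at 94.7 and 110.5 against 0 and 0.468 CPM. The kinds were counted with different program versions, and the part of intron counting in this and the other differences was not tested.

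The other 4 genes rest on few whole cells UMIs. JUNB, an AP-1 member that can oppose JUN, had no UMI in either whole cells library and 30 and 25 in nuclei. The limit that a count of 0 allows, 3 UMIs over both whole cells libraries, was 1.14 CPM, above the pooled nuclei level of 0.456, so no direction can be given on that scale. NR4A1, an orphan nuclear receptor, had 0 and 4 UMIs in whole cells against 206 and 154 in nuclei (log2 difference 0.84, SE 0.93, edgeR adjusted p = 0.46). DUSP1, a phosphatase that switches off MAP kinases, had 0 and 4 against 33 and 57 (-1.09, SE 1.03, adjusted p = 0.38). ZFP36, an RNA-binding protein that destabilises cytokine messages, had 1 and 2 against 47 and 81 (-0.37, SE 1.14, adjusted p = 0.81). A missed threshold does not show that these genes were alike in both kinds of library.

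In all, 1 of the 9 genes was higher and 4 were lower in nuclei. Of the 15781 genes tested, 29.8% were called higher and 22.4% lower (52.2% either way), so calls were common in either direction. The direction of the lower calls depends on what the other genes are taken to do. On library size alone, without the TMM factors that centre each library on the bulk of its genes, 5 of the 9 were called higher (JUN, JUNB, NR4A1, BTG2 and ZFP36) and 0 lower, beside 79.4% and 3.16% of all genes tested, so this count says nothing particular about the members. The median of all genes moved from 0.61 to 3.66. FOS then stood at 0.59 (edgeR adjusted p = 0.36), JUND at -0.77 (adjusted p = 0.30) and EGR1 at -0.14 (adjusted p = 0.86). Among barcodes with at least 200 genes only BTG2 was called, beside 27.4% of all genes higher and 11.7% lower, and there whole cells held just 3 FOS UMIs, 8 JUN, 3 JUND and 1 EGR1. The levels there were 74.2 and 35.3 CPM for JUN and 37.1 and 11.8 for JUND in whole cells, above the 9.65 and 14.5 and the 2.52 and 0.868 in nuclei, but neither passed the test (edgeR adjusted p = 0.49 and 0.19). Without whole cells replicate 2 there were 2 lower calls, JUN and JUND, and calls were fewer over all genes too, at 18.7% higher and 8.40% lower. BTG2 was called higher under every alternative that kept both libraries of each kind. Fits that left out a library take the spread from the other kind alone, so their calls are not counted here.

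**Figure D1:**
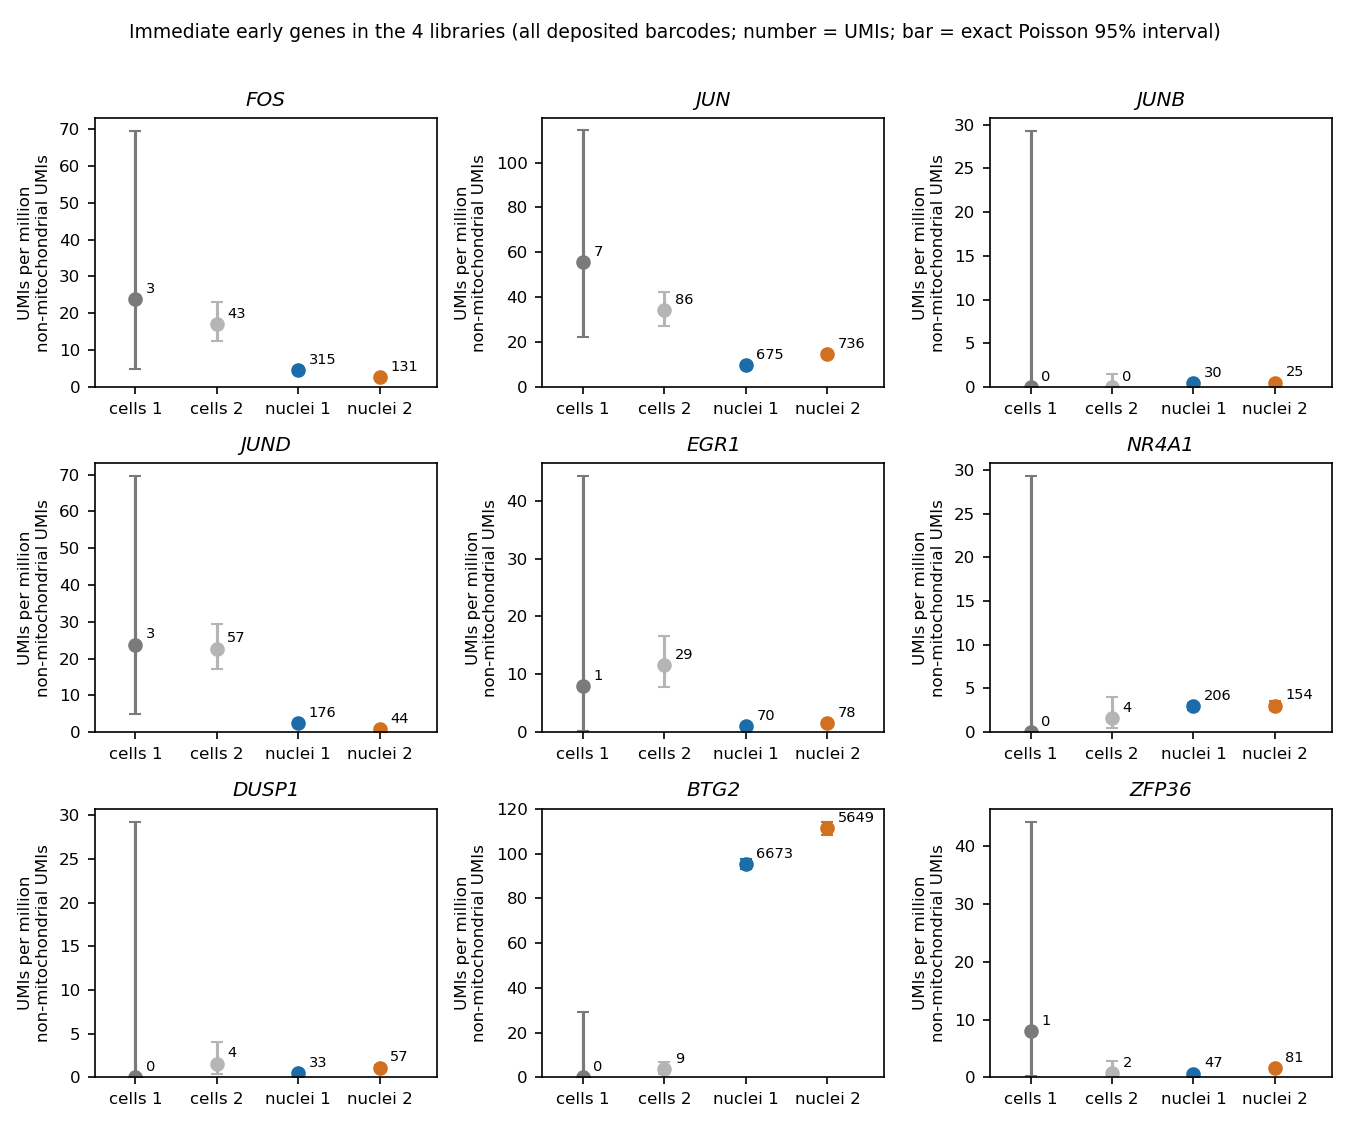
Each panel plots the level of 1 gene in CPM over non-mitochondrial UMIs (linear axis from 0) in the 2 whole cells and 2 nuclei libraries. Points are libraries, numbers are UMIs and bars are exact Poisson 95% intervals, which cover counting error only. FOS, JUN, JUND and EGR1 lie higher in whole cells and BTG2 lies higher in nuclei, and the bars of whole cells replicate 1 are wide because it holds at most 7 UMIs of any of the genes.

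Further lists of related genes were read from the same fit. Of 47 other immediate early genes, 34 were tested, 2 were higher in nuclei and 12 lower, with a median log2 difference of -0.87 beside 0.61 over all genes, of which 29.8% were higher and 22.4% lower. Without whole cells replicate 2 it had 3 higher and 2 lower, beside 18.7% and 8.40% of all genes, and its median turned to 7.02 (4.37 over all genes). With barcodes of at least 200 genes it had 3 and 3, beside 27.4% and 11.7%, and with DESeq2 2 and 7, beside 23.6% and 15.6%. The 2 higher were SGK1, a kinase (3.67, edgeR adjusted p = 1.8e-06), and NR4A2, a relative of NR4A1 (3.36, adjusted p = 1.7e-05). RHOB, a small GTPase, fell most (-3.55, adjusted p = 1.5e-06), followed by KLF4 (-3.13) and PPP1R15A (-3.12), which restarts translation after stress. Of 30 upstream regulators, the kinases and transcription factors that switch these genes on, all were tested, and 15 were higher and 4 lower, beside the same shares, with a median of 1.27. Leaving out 1 library moved these counts, to 9 higher and 3 lower without nuclei replicate 1 (18.8% and 16.7% of all genes), 9 and 3 without nuclei replicate 2 (19.4% and 17.4%) and 17 and 1 without whole cells replicate 2. With the replicate block they were 11 and 2 (20.4% and 14.2%), and with DESeq2 15 and 2 (23.6% and 15.6%). RPS6KA2 (5.54), MRTFA (5.08) and MAPK10 (4.54) were among the higher, and MAPK3, the kinase ERK1, was lower (-4.38, adjusted p = 1.4e-08). On library size alone, 20 of the other immediate early genes and 26 of the regulators were called higher and 0 lower, beside 79.4% and 3.16% of all genes.

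The second question was which cells of the striatum held the RNA. Nuclei were clustered with the 9 genes and the 47 others kept out, so that they did not shape the clusters, and clusters were named from marker genes. Each tested class had at least 50 nuclei in each library. By that rule an excitatory neuron-like class (170 and 1 nuclei) and a lymphocyte-like class (11 and 8) were named but not tested. There were 688 and 620 astrocyte-like nuclei, 3670 and 3755 oligodendrocyte-like, 575 and 685 oligodendrocyte precursor-like and 750 and 755 microglia-like. Neurons comprised 1272 and 1223 medium spiny neuron-like nuclei, the main projection neurons of the striatum, 120 and 185 interneuron-like nuclei, and 477 and 254 neuron-like nuclei led by NDST4, ADARB2 and DLX1, in which neuron markers such as GAD1 and GAD2 outnumbered those of any finer class. Medium spiny neuron-like and interneuron-like nuclei were deep, with medians of 30818 and 17725 and of 17770 and 17660 UMIs, against 1150 to 4643 in the other classes. Different clusters held most medium spiny neuron-like nuclei in the 2 libraries, those led by DRD2 or by RELN and EBF1 in replicate 1 and one led by FSHR in replicate 2. The RELN and EBF1 cluster (548 and 142 nuclei) and the FSHR cluster (6 and 851) had more markers of another class among their 10 leading genes and kept the name through a rule set after seeing the data. Without them the class had 718 and 230 nuclei, so its replicate 2 values rest mostly on clusters of uncertain name.

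Across the 7 tested classes the 9 genes did not share 1 pattern. Among these classes astrocyte-like nuclei held the highest measured levels of FOS, JUN, NR4A1 and BTG2, microglia-like nuclei those of ZFP36, DUSP1 and JUNB, and medium spiny neuron-like nuclei that of EGR1. Medium spiny neuron-like nuclei, with interneuron-like nuclei the deepest, had the lowest level of JUN. For JUND, the ranges of neighbouring classes in the order of levels overlapped throughout. The neuron-like class is shallow, and its limits for a 0 are high, above the microglia levels of JUNB and the medium spiny neuron levels of EGR1. Outside these classes, an unnamed cluster of 31 and 22 nuclei with vascular markers had higher levels of JUN (277.9 and 178.2 CPM), DUSP1 (98.1 and 213.9), FOS (98.1 and 106.9) and ZFP36 (32.7 and 106.9), from 2 to 17 UMIs each. In all unnamed nuclei without a FOS UMI, EGR1 was at 2.21 and 4.77 CPM, from 2 and 4 UMIs, above its values in medium spiny neuron-like nuclei.

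**Figure D2:**
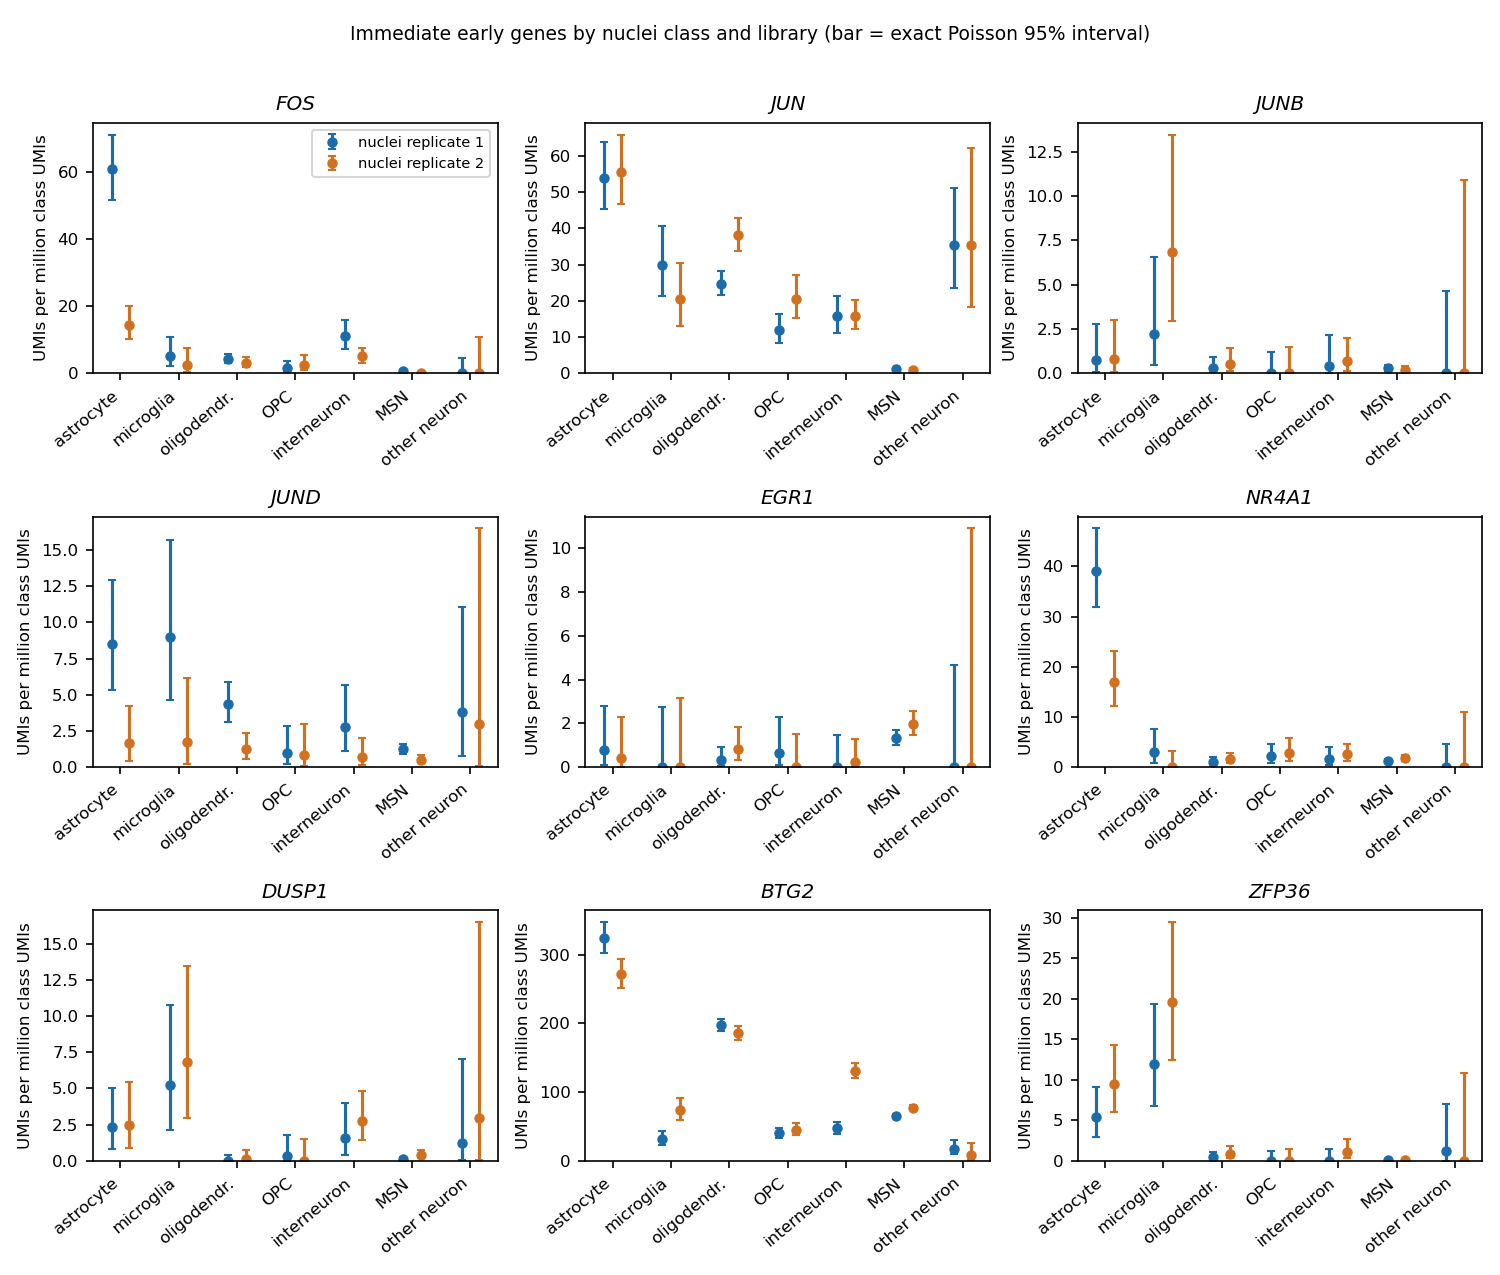
Each panel plots the level of 1 gene in CPM of a nuclei class (linear axis from 0) for the 7 classes in nuclei replicates 1 and 2. OPC is the oligodendrocyte precursor-like class, MSN the medium spiny neuron-like class and other neuron the neuron-like class, and bars are exact Poisson 95% intervals. FOS and NR4A1 stand out in astrocyte-like nuclei in both libraries, with replicate 1 above replicate 2, and ZFP36 is highest of the 7 classes in microglia-like nuclei.

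FOS had 157 UMIs in 71 of 688 astrocyte-like nuclei of replicate 1 and 35 UMIs in 22 of 620 in replicate 2, or 60.9 and 14.5 CPM. The next class, interneuron-like nuclei, had 11.02 and 5.07 CPM, and both astrocyte values lay above it. Microglia-like nuclei had 5.23 and 2.56, oligodendrocyte-like nuclei 4.35 and 3.20, and these neighbours overlapped. Precursor-like nuclei had 1.60 and 2.46, where the first value comes from 5 UMIs in 1 nucleus, and medium spiny neuron-like nuclei 0.600 and 0.110. The neuron-like class had 0 UMIs in 477 and 254 nuclei, which allows up to 3.79 and 8.88 CPM.

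FOS in astrocyte-like nuclei was higher than the mean of the other classes by 4.79 on the log2 scale (SE 0.41, edgeR adjusted p = 2.6e-06). That size depends on the class with 0 UMIs, and limma-trend, which keeps such a class finite, gave 3.74 (SE 0.47, adjusted p = 2.1e-04). FOS in interneuron-like nuclei was higher by 2.67 (SE 0.62, edgeR adjusted p = 0.0047), and by 1.80 with limma-trend (adjusted p = 0.012). In medium spiny neuron-like nuclei the edgeR value had no usable error, and limma-trend gave -2.38 (SE 0.47, adjusted p = 0.0021). From 1 library at a time, as a difference of log2 CPM with no fit or test, the astrocyte value was 2.94 without replicate 1 and 4.53 without replicate 2. The interneuron value was 1.66 and 1.93.

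Depth changes how often FOS is seen, so nuclei were also thinned to 1000 UMIs each. After thinning, 6.35% of 661 astrocyte-like nuclei in replicate 1 held a FOS UMI (exact binomial 95% interval 4.62 to 8.49%), against 10.3% unthinned. In replicate 2 it was 0.527% of 569 (0.109 to 1.53%), against 3.55% unthinned. Thinned medium spiny neuron-like nuclei had 0 of 1272, which allows up to 0.236%, and 0.0818% of 1223. In replicate 2 the thinned astrocyte share rests on 3 nuclei, and its interval covers the 0.332% of microglia-like and 0.348% of oligodendrocyte-like nuclei, so at that depth it cannot be told from their level. With doublets kept the thinned share of replicate 2 was 2.00% of 551 (1.00 to 3.54%) and the unthinned one 3.99%. The thinned shares were then 0.476% (0.130 to 1.21%) in microglia-like and 0.333% (0.167 to 0.596%) in oligodendrocyte-like nuclei, so the astrocyte interval lay above that of the second and overlapped that of the first. In replicate 1 those classes had 0.146% and 0.486%, under the astrocyte interval.

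NR4A1, which is often induced alongside FOS, had 101 and 41 UMIs in astrocyte-like nuclei, or 39.2 and 17.0 CPM. All other classes lay at 2.99 or below, and the neuron-like class had 0 UMIs in both libraries. Its log2 difference in astrocyte-like nuclei was 4.83 (SE 0.48, edgeR adjusted p = 9.6e-06), and 4.03 with limma-trend (SE 0.65, adjusted p = 0.0010). As a difference of log2 CPM with no fit, it was 3.51 without replicate 1 and 4.56 without replicate 2. Both FOS and NR4A1 were higher in replicate 1 than in replicate 2 in this class, and with 1 library per pool that difference has no test.

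FOS and NR4A1 were often seen in the same astrocyte-like nuclei. In replicate 1, 33 of the 71 nuclei with FOS held NR4A1 (46.5%, exact binomial 95% interval 34.5 to 58.7%), against 27 of 617 without FOS (4.38%, 2.90 to 6.30%). In replicate 2 it was 10 of 22 (45.5%, 24.4 to 67.8%) against 19 of 598 (3.18%, 1.92 to 4.92%). Thinned to 1000 UMIs, the shares were 34.3% against 1.18% and 18.2% against 0.731%. Nuclei are not replicates, so no test was run, but the 2 libraries gave the same order.

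JUN showed the same order, in 29.6% of nuclei with FOS against 14.3% without in replicate 1 and 59.1% against 13.9% in replicate 2. JUND did so in replicate 1 alone, in 15.5% against 1.46%, while in replicate 2 it was in 0 of 22 against 0.669%. For BTG2 the intervals overlapped, at 53.5% against 51.4% and 54.5% against 44.5%. The median depth of nuclei with FOS was 2403 UMIs in replicate 1, below the 3112 of those without, and 3749 in replicate 2, above 2764.

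Markers of other cell types moved with FOS in replicate 2. There the oligodendrocyte markers summed to 3805 CPM in nuclei with FOS and 1359 in those without, and the microglia markers to 817 and 378, while the astrocyte markers were at 5009 and 9643. In replicate 1 the same sums were 454 and 437 for oligodendrocyte, 71.6 and 85.6 for microglia and 8326 and 11044 for astrocyte markers. Markers of oligodendrocyte precursors summed to 4965 with FOS and 2980 without in replicate 1, and to 4893 and 3406 in replicate 2. The files list 11 of 12 oligodendrocyte, 12 of 12 microglia, 11 of 11 precursor and 10 of 12 astrocyte markers. Ependymal markers, of which 3 of 6 are listed, summed to 52.5 with FOS and 9.28 without in replicate 1, and to 36.5 and 16.8 in replicate 2, from 11 and 10 UMIs with FOS. Of the microglia markers, 4 had a UMI in nuclei with FOS in replicate 1 and 12 in replicate 2. The part of these markers in the FOS values was not tested.

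**Figure D3:**
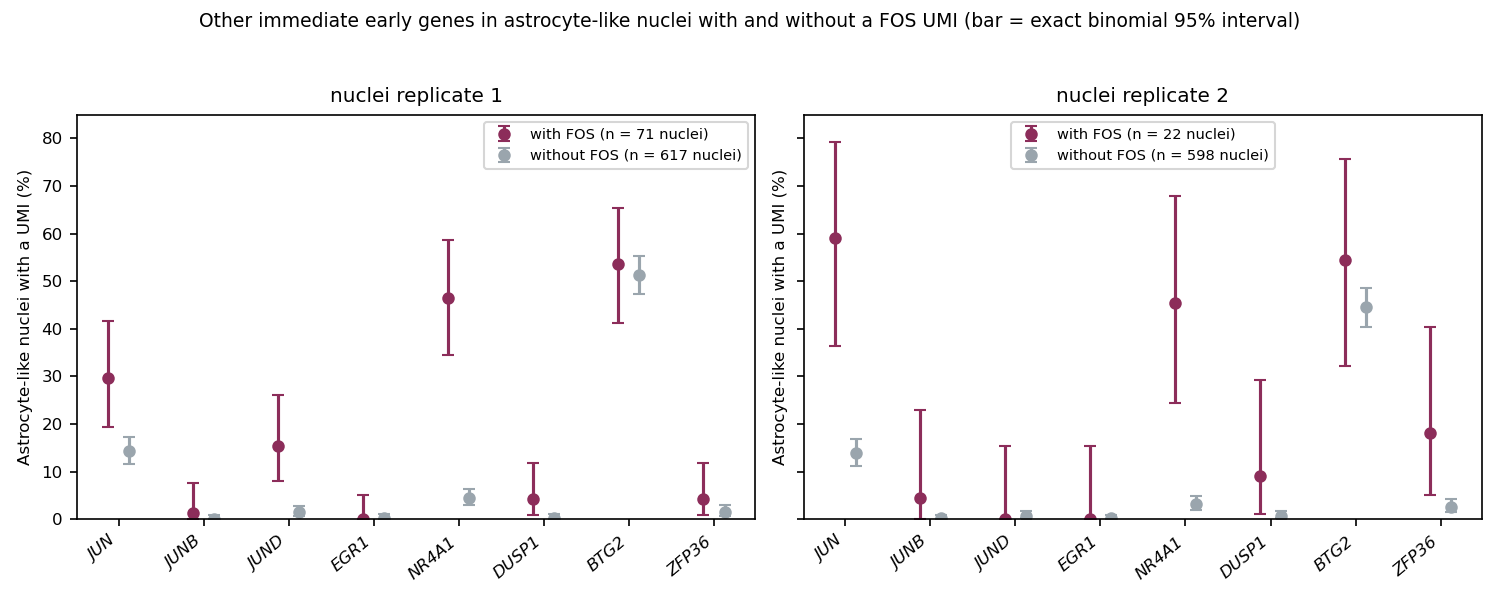
The share of astrocyte-like nuclei with a UMI of each other gene (percent, linear axis from 0) is plotted for nuclei with and without a FOS UMI, in nuclei replicates 1 and 2. Bars are exact binomial 95% intervals. The NR4A1 intervals of nuclei with and without FOS do not overlap in either library, whereas those of BTG2 overlap in both.

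JUN ranged over astrocyte-like nuclei at 53.9 and 55.6 CPM, neuron-like nuclei at 35.4 and 35.5, oligodendrocyte-like nuclei at 24.7 and 38.0 and microglia-like nuclei at 29.9 and 20.5. The oligodendrocyte values overlapped those of the neuron-like and the microglia-like nuclei, and the astrocyte values lay above all of them. Precursor-like nuclei had 11.8 and 20.5 and interneuron-like nuclei 15.7 and 15.9, which overlapped each other, and the precursor and microglia values of replicate 2 were nearly equal. Medium spiny neuron-like nuclei stood far below, with 49 and 28 UMIs in 1272 and 1223 deep nuclei, or 1.13 and 1.03 CPM. JUN fell there by 4.19 on the log2 scale (SE 0.24, edgeR adjusted p = 1.7e-08). It was higher in astrocyte-like (1.73, SE 0.18, adjusted p = 6.6e-06), oligodendrocyte-like (1.14, SE 0.17, adjusted p = 9.8e-05) and neuron-like nuclei (1.08, SE 0.29, adjusted p = 0.015).

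JUND, like several of the other genes, lay at a different level in the 2 nuclei libraries, which has no test with 1 library per pool. In all 7 classes replicate 1 lay above replicate 2, as in astrocyte-like nuclei (8.53 and 1.66 CPM), microglia-like nuclei (8.96 and 1.71) and oligodendrocyte-like nuclei (4.35 and 1.25). No other of the 9 genes had replicate 1 above replicate 2 in more than 5 classes. DUSP1 lay the other way, with replicate 2 above replicate 1 in 6 classes. Over all nuclei the JUND level was 2.52 (exact Poisson 95% interval 2.16 to 2.92) and 0.868 (0.631 to 1.16) CPM. Such intervals of the 2 nuclei libraries were also apart for FOS, JUN, DUSP1, BTG2 and ZFP36. In whole cells of the same pools JUND was at 23.8 (4.91 to 69.6, from 3 UMIs) and 22.7 (17.2 to 29.4). The first interval is too wide to tell whether the pools differed there. JUND was called higher in astrocyte-like nuclei (1.12, SE 0.38, edgeR adjusted p = 0.034), a call lost under 7 of 11 alternatives. As a difference of log2 CPM with no fit, the value was 0.25 without replicate 1. JUND was lower in medium spiny neuron-like nuclei (-1.10, SE 0.33, edgeR adjusted p = 0.012), a call lost without the library as a block and with limma-trend.

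JUNB was sparse, with 43 UMIs in the 7 classes, and did not pass the filter on low counts. Microglia-like nuclei had 3 and 8 UMIs, or 2.24 and 6.83 CPM, astrocyte-like nuclei 2 and 2 (0.775 and 0.829), and precursor-like and neuron-like nuclei 0 in both libraries. The neuron-like limits for a 0, as given for FOS, exceed the microglia values, so neuron-like and microglia-like nuclei cannot be ordered. Without the filter JUNB was higher in microglia-like nuclei by 4.23 (SE 1.09, edgeR adjusted p = 4.4e-04), a size that rests on 11 UMIs and on classes at 0.

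EGR1 also missed the filter, and most of its 125 UMIs in the 7 classes lay in medium spiny neuron-like nuclei, where 39 of the 53 of replicate 2 came from the FSHR cluster. Medium spiny neuron-like nuclei held 57 UMIs in 55 nuclei and 53 UMIs in 52 nuclei, or 1.31 and 1.95 CPM, above each value of the other classes, among them 0.775 and 0.415 in astrocyte-like and 0.318 and 0.836 in oligodendrocyte-like nuclei. Microglia-like nuclei had 0 EGR1 UMIs in 750 and in 755 nuclei, which allows up to 2.24 and 2.56 CPM, and the neuron-like class had 0 as well, which allows up to 3.79 and 8.88. Those limits exceed the medium spiny neuron levels, so these classes cannot be ordered against it. Without the filter EGR1 was higher in medium spiny neuron-like nuclei by 3.91 (SE 0.73, edgeR adjusted p = 5.5e-07), again with classes at 0 behind the size. Thinned to 1000 UMIs, only 2 of 1272 and 3 of 1223 of these nuclei held EGR1, beside unthinned shares of 4.32% and 4.25%.

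DUSP1 and ZFP36, which damp MAP kinase signals and cytokine messages, had their highest measured levels among the 7 classes in microglia-like nuclei. ZFP36 had 16 and 23 UMIs there, or 11.9 and 19.6 CPM, and 14 and 23 in astrocyte-like nuclei, or 5.43 and 9.54. No other class exceeded 1.26 CPM, and precursor-like nuclei had 0 UMIs in 575 and 685 nuclei, which allows up to 0.960 and 1.23. ZFP36 was higher in microglia-like nuclei by 4.79 (SE 0.50, edgeR adjusted p = 6.9e-06) and in astrocyte-like nuclei by 3.71 (SE 0.51, adjusted p = 1.5e-04). With limma-trend these were 3.86 (adjusted p = 6.1e-04) and 2.81 (adjusted p = 0.0092). From 1 library at a time, as differences of log2 CPM with no fit, the values were 4.09 and 3.05 without replicate 1. Without replicate 2 they were 3.63 and 2.58. Its lower call in precursor-like nuclei (edgeR adjusted p = 0.031) was lost when doublets were kept or Scrublet's own calls removed (adjusted p up to 1 over 11 alternatives).

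DUSP1 had 7 and 8 UMIs in microglia-like nuclei, or 5.23 and 6.83 CPM, above the 2.33 and 2.49 of astrocyte-like and the 1.57 and 2.76 of interneuron-like nuclei, which overlapped each other. The shallow neuron-like class ranged from 1.26 to 2.96 CPM. Its limit for a 0 in replicate 2, as given for FOS, exceeds the microglia value, so it cannot be ordered against microglia-like nuclei there. In 3670 and 3755 oligodendrocyte-like nuclei DUSP1 had 0 and 1 UMI. DUSP1 was higher in microglia-like nuclei by 2.94 (SE 0.57, edgeR adjusted p = 7.1e-04) and lower in oligodendrocyte-like nuclei (-3.82, SE 0.94, adjusted p = 0.0046). As differences of log2 CPM with no fit, they were 2.26 and -1.98 without replicate 1 and 2.25 and -2.27 without replicate 2. That measure is not the edgeR scale, and the second size rests on 1 UMI, so the sizes are uncertain. Its higher calls in interneuron-like (1.76, SE 0.54, adjusted p = 0.019) and astrocyte-like nuclei (1.59, SE 0.57, adjusted p = 0.047) were lost under 1 and 4 of the 11 alternatives. As differences of log2 CPM, these were 1.39 and 0.84 without replicate 1 and 0.86 and 1.22 without replicate 2.

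Microglia with RNA of IL1B, a cytokine, numbered 47 and 66. They had 6 and 24 BTG2 UMIs, or 63.4 and 150.4 CPM beside 29.7 and 62.3 in microglia without IL1B. JUN lay the other way, with 0 and 1 UMI (0 and 6.27 CPM) beside 32.1 and 22.7 CPM. ZFP36 was split, at 0 and 43.9 CPM beside 12.9 and 15.8, and so was FOS, at 0 and 6.27 (1 UMI) beside 5.62 and 1.98. With so few UMIs these values carry no test.

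BTG2 UMIs were counted in each of the 7 classes. Free RNA was not removed, and the medium spiny neuron markers, at 8691 and 8404 CPM in their own class, were at 1265 and 1141 in oligodendrocyte-like and 1349 and 1174 in microglia-like nuclei, so low levels here do not show expression. Astrocyte-like nuclei had 837 and 655 UMIs, or 324.5 and 271.6 CPM, and oligodendrocyte-like nuclei 197.1 and 185.6, and neither overlapped the next class. Interneuron-like nuclei followed at 47.6 and 130.6, medium spiny neuron-like nuclei at 65.0 and 77.4, microglia-like nuclei at 32.1 and 74.3 and precursor-like nuclei at 40.0 and 45.5, where neighbours overlapped. Neuron-like nuclei were lowest, at 17.7 and 8.88 from 14 and 3 UMIs.

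BTG2 was higher in astrocyte-like (2.15, SE 0.26, edgeR adjusted p = 2.8e-05) and oligodendrocyte-like nuclei (1.76, SE 0.26, adjusted p = 8.8e-05) and lower in neuron-like nuclei (-2.82, SE 0.55, adjusted p = 0.0020). Its lower call in microglia-like nuclei (-1.02, SE 0.36, adjusted p = 0.029) was lost under 3 of 11 alternatives. As differences of log2 CPM with no fit, the neuron-like and microglia-like values were -3.79 and -0.43 without replicate 1. Within oligodendrocyte-like nuclei, the cluster led by MMRN1 and ENPP6 had 244.6 and 253.9 CPM of BTG2, the one led by SVEP1 had 184.7 and 164.8, and the one led by GRK7 and VIPR2 had 221.8 and 173.3.

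Counted over classes, edgeR called 14 higher and 6 lower pairs of gene and class, and 14 of the 20 passed under all 11 alternatives run. In astrocyte-like nuclei 7 of the 9 genes were higher and 0 lower, beside 23.5% and 13.3% of the 12841 genes tested (36.8% either way), and the 2 not tested were JUNB and EGR1. Microglia-like nuclei had 2 higher and 1 lower, beside 27.9% and 29.0% (56.9% either way). Oligodendrocyte-like nuclei also had 2 higher and 1 lower, beside 28.2% and 23.2% (51.4% either way). Interneuron-like nuclei had 2 higher and 0 lower, beside 26.6% and 17.5% (44.1% either way). Medium spiny neuron-like nuclei had 0 higher and 2 lower, beside 33.4% and 24.9% (58.3% either way). The neuron-like class had 1 higher and 1 lower, beside 15.2% and 13.6% (28.8% either way). Precursor-like nuclei had 0 higher and 1 lower, beside 21.0% and 12.7% (33.7% either way). A gene that passed the filter through the class where it is high had to differ somewhere, so these counts describe the 7 tested genes and support nothing further. Over the 11 alternatives the astrocyte count was 5 to 7 higher, the microglia count 2 to 4 higher and 0 to 1 lower, and the medium spiny neuron count 0 to 2 higher and 1 to 5 lower. All-gene shares moved as well. In astrocyte-like nuclei 15.3 to 32.1% of genes were higher. In microglia-like nuclei 15.6 to 40.9% were higher and 17.6 to 33.5% lower, and the 4 higher members came on library size alone, at 40.9%. In medium spiny neuron-like nuclei 22.0 to 33.4% were higher and 12.5 to 42.1% lower. With limma-trend 30.5% of genes were lower in neuron-like nuclei, where 3 members were lower.

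Within interneuron-like nuclei, most FOS UMIs lay in the smaller of the clusters. The interneuron-like cluster led by NOS1, the enzyme that makes nitric oxide, CHODL and NPY, a neuropeptide, had 23 FOS UMIs in 7 of 22 nuclei and 16 in 8 of 30. That is 52.4 and 28.2 CPM (exact Poisson 95% intervals 33.2 to 78.6 and 16.1 to 45.8). The cluster led by NKX2-1, LHX6 and KIT, with PTHLH and PVALB also raised, had 5 and 6 FOS UMIs in 98 and 155 nuclei, or 2.38 and 1.59 CPM. Values of the 2 clusters did not overlap, and 21 of the 23 UMIs of replicate 1 lay in 5 nuclei.

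Among medium spiny neuron-like clusters, those led by DRD2 and by RELN and EBF1 had 13 and 11 FOS UMIs in replicate 1 (0.623 and 0.555 CPM) and 0 and 0 in replicate 2. A small cluster led by CPNE4 had 2 FOS UMIs in 42 nuclei of replicate 1 and 1 nucleus in replicate 2. EGR1 was in both, at 1.53 and 1.55 CPM in the DRD2 cluster and 1.01 and 0.705 in the RELN and EBF1 cluster. The FSHR cluster had 39 EGR1 UMIs in 851 nuclei of replicate 2, or 2.80 CPM, and had only 6 nuclei in replicate 1. BTG2 was 142.6 CPM in the KIT cluster of replicate 2 and 51.4 in replicate 1.

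**Figure D4:**
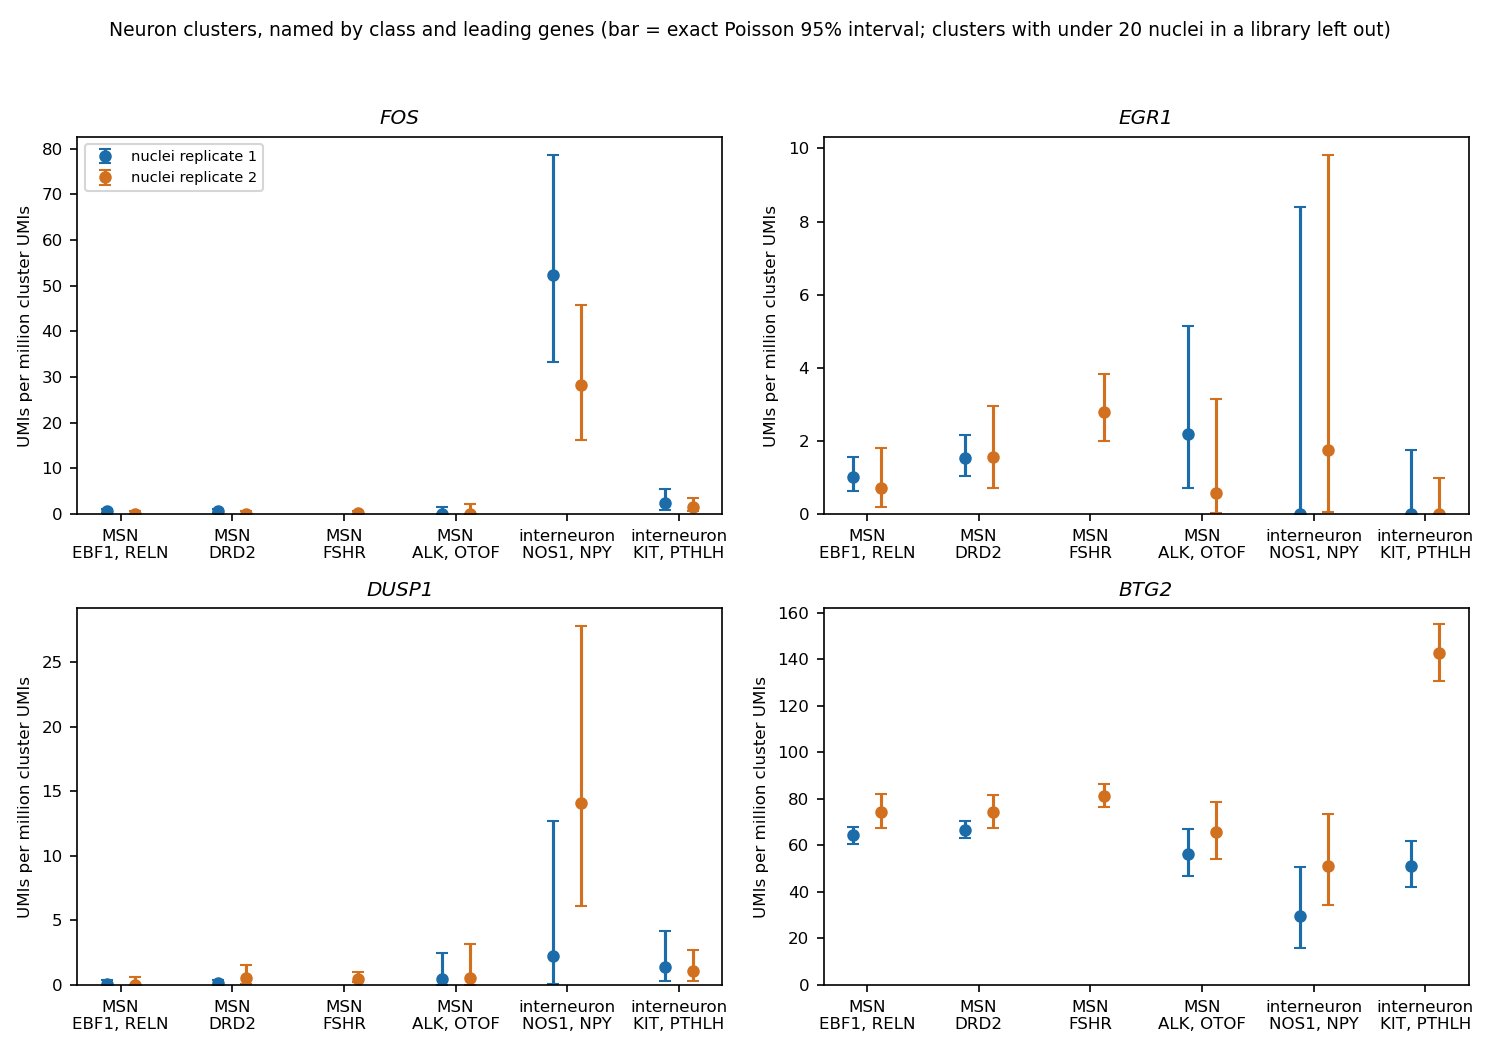
Levels in CPM of a cluster (linear axis from 0) are plotted for FOS, EGR1, DUSP1 and BTG2 in 6 neuron clusters of nuclei replicates 1 and 2. Clusters are labelled by class and leading genes or markers, bars are exact Poisson 95% intervals, and clusters with under 20 nuclei in a library are left out there. FOS is highest in the interneuron-like cluster with NOS1 and NPY in both libraries, at 52.4 and 28.2 CPM.

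Nuclei with UMIs of at least 3 of the 9 genes made up 42 of 688 astrocyte-like nuclei (6.10%) and 21 of 620 (3.39%), and 3.33% and 4.86% of the much deeper interneuron-like nuclei. They were 1.89% and 0.245% of medium spiny neuron-like, 0.267% and 0.132% of microglia-like and 0.136% and 0.0533% of oligodendrocyte-like nuclei. These shares are unthinned and move with depth.

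Other immediate early genes were called in several classes, and 27 of the 47 were tested. In astrocyte-like nuclei 14 were higher and 4 lower (median 1.11 beside 0.06 over all genes, of which 23.5% were higher and 13.3% lower). Over the 11 alternatives there were 11 to 15 higher and 0 to 4 lower, beside 15.3 to 32.1% and 7.09 to 15.8% of all genes. The 0 lower came on library size alone, where 7.09% of all genes were lower. The median ranged from 0.52 with no filter to 1.33 on library size alone (0.53 with DESeq2 and with limma-trend, 0.65 with doublets kept and 0.63 with Scrublet's calls). The higher genes included IER3 (5.02), CCN1, a matrix protein (4.18), ATF3, a stress transcription factor (3.93), and NR4A3 (3.27), with edgeR adjusted p between 1.6e-05 and 0.0027. In microglia-like nuclei 14 were higher and 3 lower (median 1.55 beside -0.05, with 27.9% and 29.0% of all genes), led by IER3 (7.33), TNFAIP3, which restrains NF-kB (6.57), CEBPB (5.34) and DUSP6 (5.10).

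Oligodendrocyte-like nuclei had 9 of 27 higher and 8 lower, beside 28.2% and 23.2% of all genes, with ATF3 (4.86) and CSRNP1 (3.83) among the higher and DUSP4 (-4.29) among the lower. Medium spiny neuron-like nuclei had 6 higher and 8 lower, beside 33.4% and 24.9%, with RGS2 (3.37) and FOSL2 (3.02) higher and CCN1 (-4.36) and NR4A2 (-4.29) lower. Interneuron-like nuclei had 5 higher and 5 lower, beside 26.6% and 17.5%, with FOSL2, an AP-1 member (4.55), and NR4A3 (3.12) higher. The neuron-like class had 2 and 3, beside 15.2% and 13.6%, and precursor-like nuclei 5 and 6, beside 21.0% and 12.7%. With limma-trend these were 2 and 11 (19.7% and 30.5% of all genes) and 2 and 8 (17.5% and 13.5%).

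Of the upstream regulators, 28 were tested, and 3 were higher and 10 lower in astrocyte-like nuclei (median -0.26 beside 0.06, with 23.5% and 13.3% of all genes). Over the 11 alternatives there were 1 to 3 higher and 6 to 11 lower, beside 15.3 to 32.1% and 7.09 to 15.8% of all genes. The 6 lower came on library size alone, where 7.09% of all genes were lower. The median was -0.28 to -0.04. The 3 higher were SRF, the factor that binds the FOS promoter (1.47, SE 0.34, edgeR adjusted p = 0.0047), its partner ELK4 (0.96, adjusted p = 0.030) and its cofactor MRTFA (0.80, adjusted p = 0.0023), the last named after its value was seen, to complete the count. The lower genes included ELK1, another partner of SRF (-1.90, adjusted p = 0.019), and the kinase RPS6KA2 (-1.87). Microglia-like nuclei had 12 of 28 higher and 5 lower, beside 27.9% and 29.0% of all genes. Medium spiny neuron-like and interneuron-like nuclei had 11 and 8 each, beside 33.4% and 24.9% and beside 26.6% and 17.5%. Oligodendrocyte-like nuclei had 6 and 7 (28.2% and 23.2% of all genes), neuron-like nuclei 6 and 5 (15.2% and 13.6%) and precursor-like nuclei 4 and 7 (21.0% and 12.7%).

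Genes most like the members were ranked by Pearson correlation of log2 CPM over 14 profiles, 7 classes in 2 libraries, among 7827 genes. The profiles share libraries and differ in depth, so the values are descriptions. For FOS they were CRADD (0.92) and ID1 (0.87), for NR4A1 NADK2 (0.93) and PPP1R3C (0.91), for JUN INSR (0.95) and PTPN21 (0.93), and for BTG2 SLC22A5 (0.95) and KLF9 (0.94). For ZFP36 they were ILRUN (0.97) and ALOX5AP (0.96), and for DUSP1 WBP1L (0.96) and PFKFB4 (0.94). JUNB was most like DIS3L (0.95) and SNX8 (0.94), and JUND most like NEURL4 (0.89) and ATP5ME (0.89). No gene of the RefSeq assembly ARS-UI_Ramb_v3.0 overlapped any of the 9 members there, although the build behind the deposited counts is not given in the sources used here.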

How the data were processed

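Per the labels, 2 whole cells and 2 nuclei libraries of sheep striatum were made with 10x Genomics droplets. The deposited values are raw UMI counts per gene and barcode, written by Cell Ranger 6.0.1 (whole cells) and 7.0.0 (nuclei) per the file headers, so program version and library kind cannot be told apart. The submitters' processing notes also list Cell Ranger 2.1.1 and STAR 2.7.2a. The genome build and the counting of introns are not given in the sources used here, so any difference in intron counting is confounded with library kind.

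Counts were summed per library, or per nuclei class and library, and tested with edgeR 4.0.16 (TMM, filterByExpr, Benjamini-Hochberg adjustment over all tested genes at 0.05). The class fit had the library as a block, and each class was set against the mean of the other classes. Alternatives used DESeq2 1.42.0 and limma 3.58.1. On simulated counts of 15208 genes the library test found 53.3% of 4-fold and 98.9% of 16-fold changes. For the astrocyte contrast, on 12075 genes, it found 89.6% and 96.9%. Each simulation had 200 changed genes, a fixed dispersion and otherwise 1 shared profile. The data differ from that, with far more genes called, so these rates describe the simulated setting only.

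After barcodes under 200 genes or over 5% mitochondrial UMIs were dropped, 8700 and 8388 nuclei went into clustering with scanpy 1.11.5 (2000 variable genes, 30 components, 15 neighbours, Leiden resolution 0.5). Scrublet called 390 doublets in replicate 1 and 0 in replicate 2, where it did not work, so the 8% of nuclei with the highest scores were removed from each library, leaving 8004 and 7717 in 19 clusters. Doublets remain possible. A cluster took the name of the class with most markers raised at least 2-fold and detected in at least 5% of nuclei (3 or more markers). Clusters with no finer class but 3 or more neuron markers were called neuron-like. A cluster stayed unnamed on a tie, or where its 10 leading genes held more markers of another class than of its own. That last rule was waived, after seeing the data, where its own raised markers were more than 3 times as many.

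Libraries were paired by the sheep in their titles. Deviations of same-pool libraries had a correlation of -0.048 over 1791 genes. Intervals, and limits of 3 counts for a 0, cover counting error only. Named genes were the 9 members, at most the 6 largest called genes of each fixed list, and the 2 most like each member. The genes most like EGR1 are not reported here. The members and lists were chosen with earlier results of these data known. With 2 pools per group, p-values between library kinds measure the spread between pools only. In the class fit the library is a block, so p-values there measure how class differences vary between the 2 libraries. In both fits edgeR shares its estimate of spread across genes.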

Additional observations from a re-analysis of the deposited data

Results flagged for a closer look

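ZFP36 moved in opposite directions in the 2 animal pools between whole cells and nuclei. Its log2 ratio of nuclei over whole cells, over non-mitochondrial UMIs, was -3.56 in sheep 1 and 2 and 1.01 in sheep 3 and 4. The difference was not tested, and the whole cells side rests on 1 and 2 UMIs.

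Clusters that took no class name entered no class comparison, and some of the genes exceeded the limit of a 0 count there in both libraries. BTG2 was at 72.8 and 68.8 CPM in the cluster led by LHX8 (158 and 154 nuclei) and at 262.2 and 227.9 in the one led by SLC5A7 (82 and 55 nuclei), the transporter of cholinergic neurons. The cluster with endothelial, mural and fibroblast markers in equal number (31 and 22 nuclei) had 98.1 and 213.9 CPM of DUSP1, from 6 UMIs in each library. In the same nuclei JUN was at 277.9 and 178.2 CPM, from 17 and 5 UMIs.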

How the results depend on the processing

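Between whole cells and nuclei, library size alone gave 5 higher and 0 lower calls and turned FOS to 0.59, JUN to 1.29, DUSP1 to 2.03 and ZFP36 to 2.69 on the log2 scale, where the scaling moves the median of all genes. Barcodes with at least 200 genes gave 0 lower calls (edgeR, 1 of the 9 genes at an unadjusted p under 0.05) and DUSP1 at 7.56. Leaving out each library in turn gave 2 to 4 lower and 1 to 1 higher calls, while 8.40 to 23.1% of all genes were lower and 18.7 to 32.5% higher (lowest without whole cells replicate 2, highest without whole cells replicate 1). There DUSP1 ranged from -1.13 to 7.96, turned without whole cells replicate 2. ZFP36 ranged from -2.45 to 0.38, turned without whole cells replicate 1 and, at 0.10, without nuclei replicate 1. The values of 7.56 and 7.96 are set against whole cells with 0 UMIs and depend on the prior count, and the cause of the other turns was not tested. With the replicate block, 3 genes were lower and JUN lost its call (-1.75), beside 14.2% lower and 20.4% higher of all genes; it changed no other call of the 9 genes between whole cells and nuclei. Without the replicate block the class fit gave 12 higher and 5 lower calls, beside 21.6% and 15.8% of all pairs of gene and class. DESeq2, no filter and leaving out mitochondrial genes each gave 1 higher and 4 lower, beside 23.6% and 15.6%, 24.6% and 15.8%, and 30.7% and 22.1% of all genes between whole cells and nuclei. Between classes, higher calls ranged from 11 to 17 and lower calls from 5 to 11 over 11 alternatives, while all pairs of gene and class ranged from 16.3 to 25.4% higher and 11.2 to 21.4% lower, against 25.1% and 19.2% as reported. The 11 lower calls came from limma-trend, under which lower calls were also the most common over all pairs (21.4%) and rose from 13.6% to 30.5% in neuron-like nuclei. Limma-trend and the strict rule for names were chosen after seeing the data. FOS was in 10.3% (unthinned), 6.35% (thinned to 1000 UMIs) or 4.22% (thinned to 500) of astrocyte-like nuclei of replicate 1, and in replicate 2 in 3.55% (unthinned) or 0.527% (thinned to 1000 UMIs), the second becoming 2.00% with doublets kept. Class values without 1 library are differences of log2 CPM with a prior count of 2. They come from no fit and are not on the edgeR scale.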
